A study of Schizosaccharomyces pombe with 28 samples.

Results

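The genes described here encode the respiratory chain and ATP synthase of the fission yeast Schizosaccharomyces pombe. They are the nuclear genes whose symbol in the probe annotation begins with cox, qcr, atp or sdh followed by a digit, together with rip1, cyt1 and cyc1. The rule used names only and found 45 of the 4929 genes on the array, each with 2 probes. Of these, 31 encode structural subunits and 14 encode assembly or other factors. The subunits are 3 of complex II (succinate dehydrogenase), 8 of complex III (the cytochrome bc1 complex), cytochrome c itself (cyc1), 7 of complex IV (cytochrome c oxidase) and 12 of complex V (the ATP synthase). The nuclear genes atp19, cox7, qcr9, sdh8, cox14, cox20 and cox1102, the complex II anchor sdh4 (tim18 in RefSeq) and the subunits encoded in mitochondrial DNA are not analysed here.

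There is a single group of 28 arrays, all of the haploid wild-type strain LJY1014, whose genotype is h- leu1-32, grown in YES (a rich medium) and harvested in early-log phase. Each array was a self-self hybridisation: cDNA from independent cultures of that strain filled both the Cy3 and the Cy5 channel. Every value is therefore a log2 ratio between channels of the same kind of cell, not a level, and 0 means equal signal. Which channel was the numerator, and whether dyes were swapped, is not given in the sources used here, so a sign names no culture and no dye. The leu1-32 mutation was carried by both channels of every array.

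Electrons from succinate enter the chain at complex II, pass through coenzyme Q to complex III, travel on cytochrome c to complex IV and are there given to oxygen. Complexes III and IV pump protons, and the ATP synthase lets them flow back through its membrane part, Fo, to drive ATP formation in its catalytic part, F1. Fission yeast has no proton-pumping complex I and passes electrons from NADH to coenzyme Q through single-polypeptide dehydrogenases. Most subunits are made from nuclear genes and imported, so the mRNAs measured here encode partners of subunits made inside the mitochondrion. The roles given below for small subunits and assembly factors are those known from budding yeast.

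The arrays fell into 3 sets of like arrays when clustered on all genes that are not members. Set 1 held arrays 1 to 8, 19 and 20, set 2 arrays 9 to 18 and set 3 arrays 21 to 28. No label names them, they are not study groups, and no test was made between them. Where 3 set values follow each other below, they are those of sets 1, 2 and 3 in that order. Because the arrays are not independent draws, the test of a mean against 0 took the sets as a random block (limma, robust prior, two-sided, Benjamini-Hochberg over 4929 genes). That fit takes its error from 28 arrays although a mean rests on 3 sets, so its p-values may be too small for genes in general. A single correlation of 0.48 also serves all genes, so this holds more for genes that follow the sets more closely. The labels call the cultures independent, and the p-values measure the spread among these arrays.

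**Figure D1:**
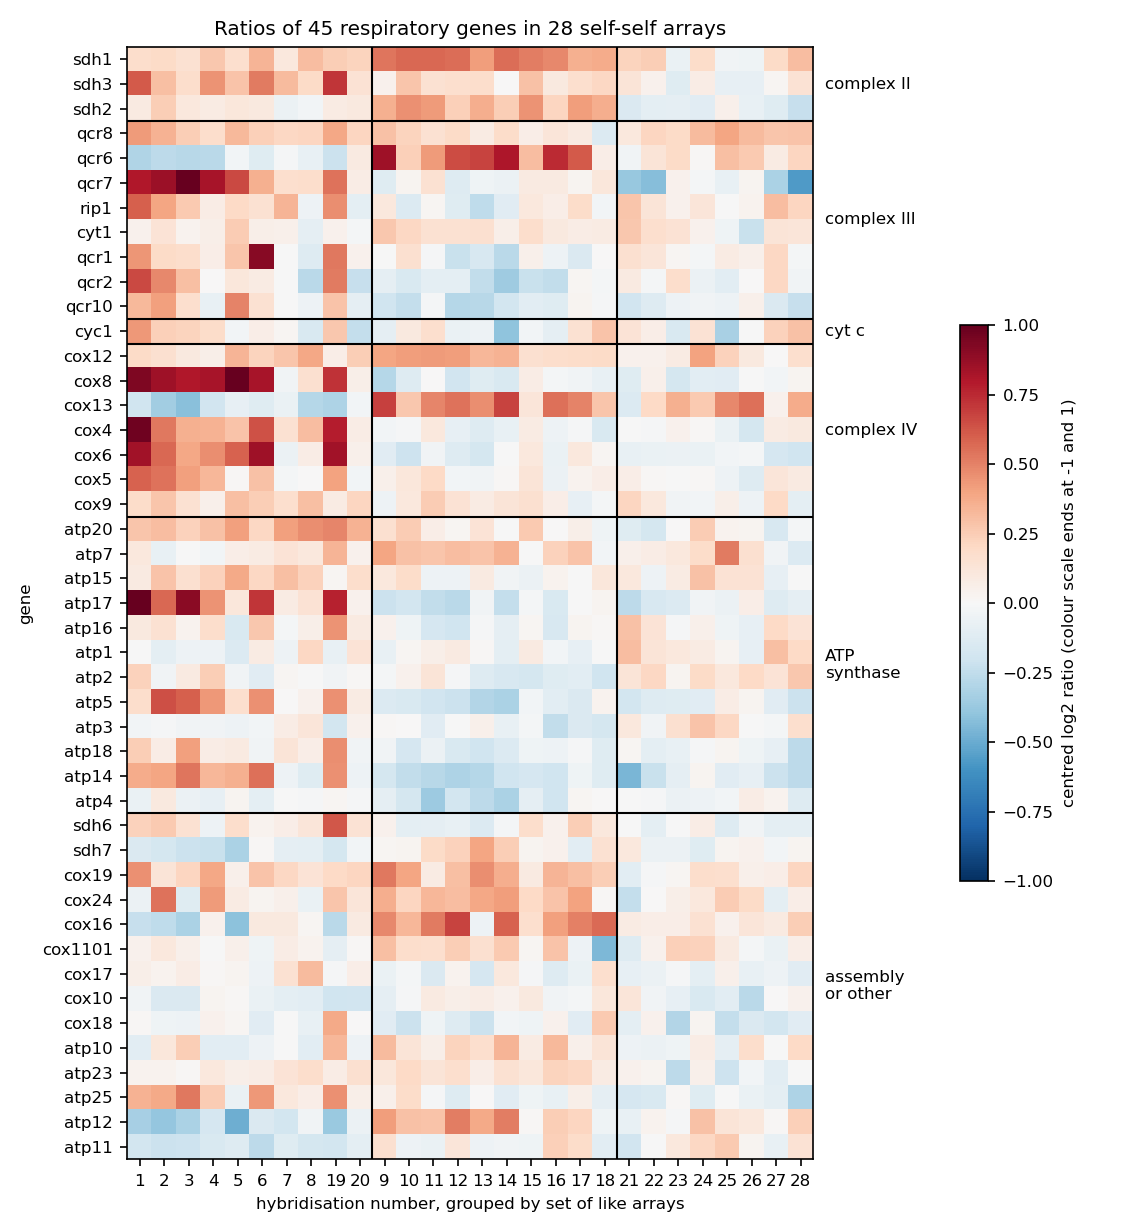
Centred log2 ratio of each of the 45 genes (rows, by complex) in each of the 28 arrays (columns, by set of like arrays); red is above 0, blue below 0, and the colour scale ends at -1 and 1. cox8, cox6 and atp14 are red in arrays 1 to 6 and 19, while qcr6, cox13 and cox16 reach their highest values in arrays 9 to 18 and are paler red in most of arrays 21 to 28.

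The respiratory genes had a spread close to that of other genes, and the single widest spread was that of cox8, a subunit of complex IV. The SD of a gene over the 28 arrays had a median of 0.186 among the 45 genes, against 0.165 among all genes. Structural subunits had a median SD of 0.195 and assembly or other factors 0.156. By complex the median SD was 0.199 for complex II, 0.221 for complex III, 0.287 for complex IV and 0.155 for the ATP synthase. An SD of at least 0.25 was reached by 11 of the 45 genes (atp5, atp12, atp14, atp17, cox4, cox6, cox8, cox13, cox16, qcr6 and qcr7), against 16.3% of all genes. Of these 11 genes, 4 were among the 7 subunits of complex IV. The complex IV median is the SD of cox4, and the subunits of that complex were split. cox8 had 0.431, whereas cox9 and cox12 had 0.119 and 0.134, below the median of all genes. Next after cox8 came qcr7 (0.397), atp17 (0.371) and qcr6 (0.348), of other complexes. The variation of cox4 and qcr7 did not pass the probe test described next (adjusted p = 0.221 and 0.253).

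The 2 probes of a gene give an error against which its spread over arrays can be set. Variation between arrays exceeded the disagreement of the probes in 25 of the 45 genes (one-sided F test, Benjamini-Hochberg adjusted p under 0.05), close to the 53.1% of all genes that passed. Complex IV had 6 of its 7 subunits past this test, complex III 5 of 8, complex II 2 of 3 and the ATP synthase 5 of 12. cyc1 passed, as did 6 of the 14 factors (atp12, atp23, cox16, cox1101, sdh6 and sdh7). With the mean of each set removed from each probe, 17 of the 45 genes passed, against 23.2% of all genes. The same 6 subunits of complex IV (cox5, cox6, cox8, cox9, cox12 and cox13) were among them. cox1101 shares its RefSeq gene length with cox1102, and whether its probes also read that copy was not tested.

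**Figure D2:**
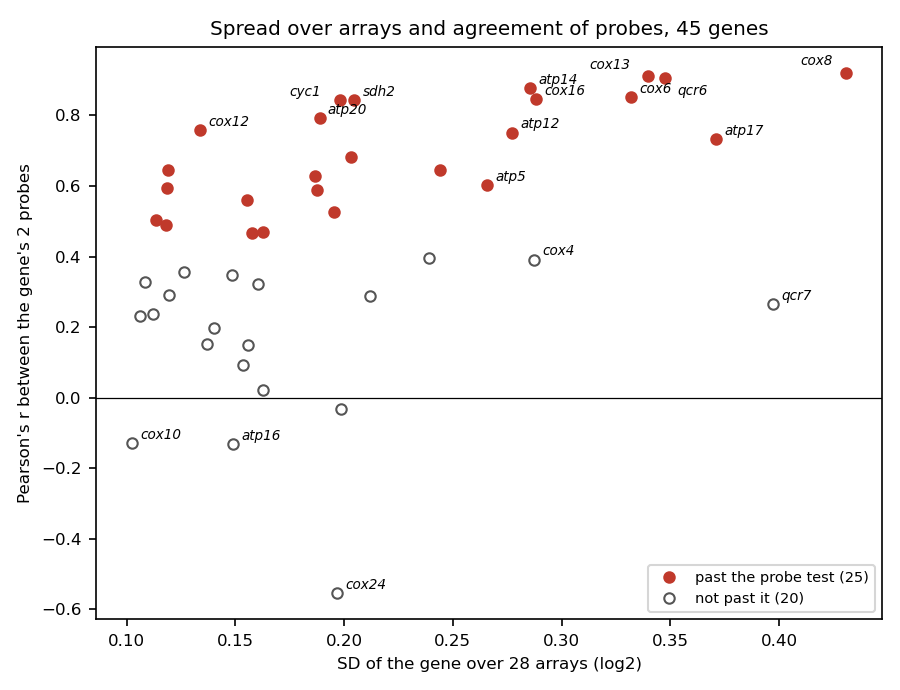
SD of each of the 45 genes over 28 arrays (horizontal axis, log2) against Pearson's r between its 2 probes (vertical axis); filled points passed the probe test and open points did not. cox8, cox13 and qcr6 combine high SD with r above 0.9, whereas qcr7 and cox4 have high SD with r of 0.27 and 0.39, and cox24 has r of -0.55.

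Complex II oxidises succinate in the citric acid cycle and feeds its electrons to coenzyme Q. sdh1 (SPAC1556.02C) encodes its flavoprotein, the catalytic subunit. Its log2 ratio had a lowest value of -0.06, a median of 0.26 and a highest value of 0.57, and lay above 0 in 25 of 28 arrays. In set 2 every value, from 0.35 to 0.57 with a median of 0.52, was higher than every value of the other arrays, whose highest was 0.34. The median was 0.20 in set 1 (0.11 to 0.34) and 0.19 in set 3 (-0.06 to 0.31).

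sdh1 was the only one of the 45 genes with a mean past the test, at 0.28 (SE 0.067, limma adjusted p = 0.0207). The sets held 71.8% of its variance, against a median of 43.7% over all genes, so this p-value may be too small. The background was 0.629% of all genes above 0 and 0.812% below 0, and a count of 1 is not read as a property of the 45 genes. At an unadjusted p under 0.05 there were 5 of the 45 genes (sdh1, sdh3, qcr8, cox12 and cox19), against 14.6% of all genes. Without the block, 20 of the 45 genes passed above 0 and 1 below (atp4), against 27.8% and 24.0% of all genes.

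Within set 1 alone, 25 of the 45 genes passed above 0 and 6 below, against 33.0% and 32.3% of all genes. Within set 2 alone the counts were 18 and 8, against 33.4% and 32.4%, and within set 3 alone 8 and 5, against 12.7% and 13.7%. With 5 finer sets as the block 3 genes passed above 0 (sdh1, qcr8 and cox12), against 1.62% of all genes, and with arrays scaled to equal spread 2 did (sdh1 and qcr8), against 0.913%. With the 3 set means as the only values 0 of the 45 passed in limma, against 0.0% of all genes, and 4 had an unadjusted p under 0.05 (sdh1, qcr8, cox12 and cox19), against 6.57%. There sdh1 had a mean of 0.28 with a limma adjusted p of 0.702. In set 3 alone the mean of sdh1 was 0.13 with a limma adjusted p of 0.0601. By contrast, qcr8 and cox12 passed above 0 in each of the 3 sets alone. Their limma adjusted p-values were 7.0e-06, 0.0052 and 0.00032 for qcr8, and 0.00027, 2.4e-06 and 0.036 for cox12. How many of all genes passed in all 3 sets was not counted. sdh1 was also the only one of the 45 genes for which all arrays of 1 set lay outside the range of the others, a pattern that 7.69% of all genes showed.

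sdh2 encodes the iron-sulphur subunit that carries electrons away from sdh1. Its ratio had a median of 0.36 in set 2 (0.22 to 0.46), 0.09 in set 1 (-0.06 to 0.25) and -0.10 in set 3 (-0.23 to 0.05). It was thus higher in set 2, although its lowest value there lay below the highest of set 1. The sets held 84.3% of its variance, the highest share among the 45 genes, and its probes correlated at 0.84. The iron uptake genes fio1 and frp1 also differ between these sets: fio1, a ferroxidase, had set medians of -1.53, -2.41 and 0.70, and frp1, a ferric reductase, -0.82, -2.28 and 0.46. Their part in the values of sdh1 and sdh2 was not tested.

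sdh3, a membrane anchor of complex II, followed another course, with set medians of 0.31, 0.17 and 0.03. Its probes did not agree (r = -0.03), and its variation did not pass the probe test (adjusted p = 0.614). Over the 28 arrays sdh1 and sdh2 correlated at 0.70, but at -0.31 once the set means were removed. The factors sdh6 and sdh7 assemble complex II and had means of 0.06 and -0.01. sdh7, the lower of them, ran from -0.32 to 0.39 with a median of -0.01, and its set medians were -0.16, 0.10 and 0.00.

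Complex III passes electrons from coenzyme Q to cytochrome c. Its gene of highest mean was qcr8, a small membrane-spanning subunit, which ran from -0.13 through a median of 0.21 to 0.43 and lay above 0 in 27 arrays. Its set medians were close, at 0.24 (0.18 to 0.43), 0.14 (-0.13 to 0.29) and 0.28 (0.10 to 0.39). The mean of 0.22 (SE 0.060) narrowly missed the threshold, with a limma adjusted p of 0.0516.

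qcr6 (SPBC16C6.08C), the acidic hinge subunit that helps cytochrome c dock, varied most among the complex III genes whose probes agreed. It had an SD of 0.348, a lowest value of -0.30, a median of 0.11 and a highest of 0.85. Set 2 was high, with a median of 0.63 (0.07 to 0.85), and set 1 low, with -0.17 (-0.30 to 0.09), while set 3 lay between at 0.16 (-0.04 to 0.30). Array 18, at 0.07, was the only array of set 2 within the range of set 1. The probes of qcr6 correlated at 0.90.

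qcr7 had a still higher SD of 0.397, but its probes did not share it. The SD of its probes was 0.70 and 0.26, they correlated at 0.27, and the probe test was not passed (adjusted p = 0.253). The core proteins qcr1 and qcr2, which form the matrix side of the complex, had SDs of 0.239 and 0.244. Only qcr2 of this pair passed the probe test.

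Of the redox carriers cyt1 and rip1, only cyt1 differed little between arrays. cyt1, the cytochrome c1 gene, had one of the 3 lowest SDs of the 45 genes, 0.109, with values from -0.23 to 0.27 around a median of 0.09. Its set medians were 0.05 (-0.09 to 0.25), 0.15 (0.06 to 0.27) and 0.12 (-0.23 to 0.27), which overlap widely. rip1, the Rieske iron-sulphur protein, had a mean of 0.12 and an SD of 0.195, against a median of 0.186 among the 45 genes. It passed the probe test (adjusted p = 0.00531). qcr10 had the lowest mean of the complex, -0.02, with values from -0.28 to 0.50 around a median of -0.05. Its set medians were 0.16 (-0.09 to 0.50), -0.15 (-0.28 to 0.03) and -0.09 (-0.23 to 0.05).

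cyc1 encodes cytochrome c, the soluble carrier between complexes III and IV. It ran from -0.40 through a median of 0.07 to 0.43 and had a mean of 0.05 ± 0.198 (SD, n = 28). Its variation was reproducible between probes (r = 0.84) but did not follow the sets, which held 4.99% of its variance, the lowest share among the 45 genes. The set medians were 0.12 (-0.24 to 0.43), -0.04 (-0.40 to 0.28) and 0.10 (-0.33 to 0.29), so all 3 sets contained high and low arrays. The probe test with the sets removed gave an adjusted p of 3.82e-06.

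Complex IV reduces oxygen, and its nuclear subunits surround the catalytic core made in the mitochondrion. cox8 (SPAC24C9.16C) varied most of all 45 genes, with an SD of 0.431, the rank of 81 among all 4929 genes. Its ratio was 0.93, 0.85, 0.80, 0.82, 1.22 and 0.83 in arrays 1 to 6 and 0.72 in array 19. In arrays 7, 8 and 20 of the same set it was -0.03, 0.16 and 0.05. Set 2 ran from -0.28 to 0.07 with a median of -0.10, and set 3 from -0.18 to 0.05 with a median of -0.07. Thus 7 arrays stood high and the other 21 were at 0.16 or lower, and the probes correlated at 0.92.

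cox6 (SPAC1B2.04) showed the same split. It ran from 0.38 to 0.85 in arrays 1 to 6 and 19, and was -0.06, 0.07 and 0.05 in arrays 7, 8 and 20. Its medians in sets 2 and 3 were -0.05 (-0.21 to 0.10) and -0.07 (-0.20 to -0.02). Over all arrays its lowest, median and highest values were -0.21, -0.02 and 0.85, with an SD of 0.332.

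Arrays 7, 8 and 20 lay below all of arrays 1 to 6 and 19 for 8 of the 45 genes (cox5, cox6, cox8, qcr1, qcr2, qcr7, atp5 and atp14), against 10.1% of all genes. They lay above them for 2 (atp3 and atp23), against 7.61% of all genes. All 8 of the genes that lay below are structural subunits, and this split was seen in the data before it was counted. Whether a technical difference separates arrays 7, 8 and 20 was not tested.

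cox13 (SPCC1739.09C), another small subunit of complex IV, took the opposite course. It had an SD of 0.340 and ran from -0.42 through 0.23 to 0.68. Set 1 lay below 0 throughout, with a median of -0.20 (-0.42 to -0.03), while set 2 had 0.49 (0.12 to 0.68) and set 3 0.31 (-0.13 to 0.55). Every array of set 2 was above every array of set 1. The sets held 73.8% of its variance, and its probes correlated at 0.91.

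**Figure D3:**
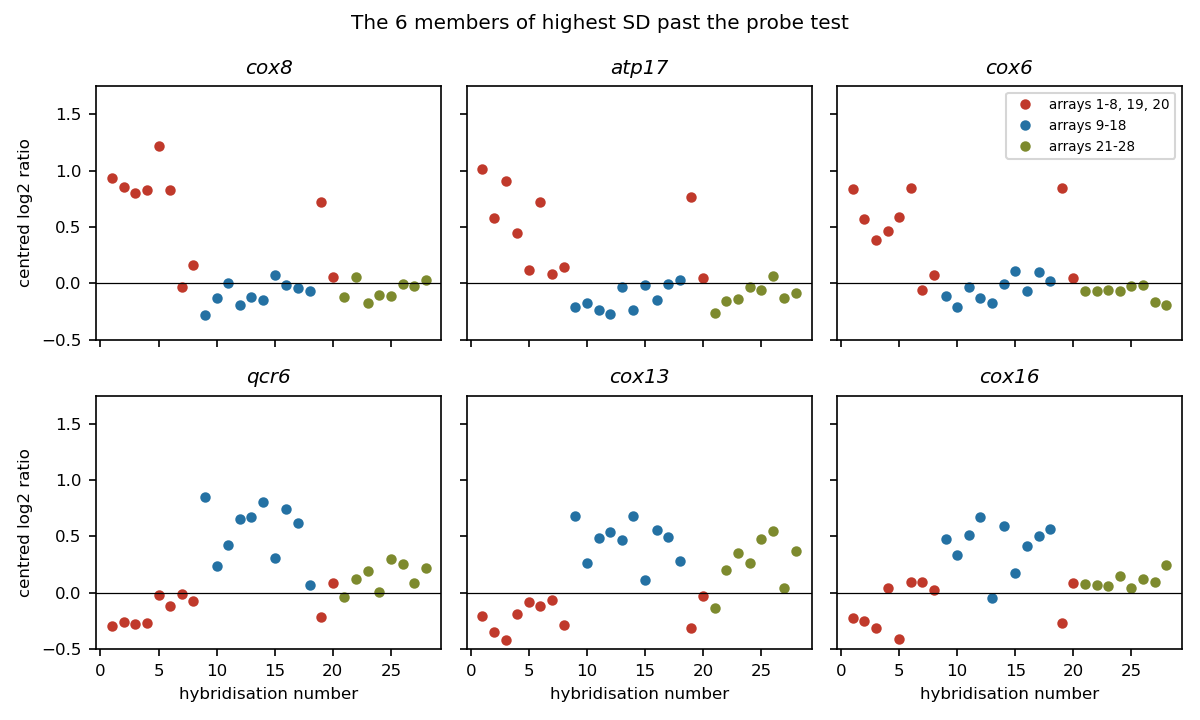
Centred log2 ratio by hybridisation number for the 6 genes of highest SD whose variation passed the probe test, coloured by set of like arrays. cox8, atp17 and cox6 stand high in most of set 1, up to 1.22 for cox8, and qcr6, cox13 and cox16 stand high in set 2, up to 0.85 for qcr6.

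cox12 (SPCC1442.08C), a subunit on the side of the complex facing cytochrome c, had the highest mean of the complex IV genes. It was above 0 in all 28 arrays, from 0.002 through 0.19 to 0.42, and was the only one of the 45 genes with 1 sign throughout, against 1.05% of all genes. After the adjustment for gene length it was above 0 in 24 arrays, with a lowest value of -0.04, fewer than qcr8 (27), cox19 (26) and sdh1 (25). Its set medians were 0.21 (0.06 to 0.39), 0.34 (0.16 to 0.42) and 0.09 (0.00 to 0.40). The mean of 0.21 (SE 0.069) did not pass the test (limma adjusted p = 0.118).

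cox4, which holds a zinc ion, had an SD of 0.287, but its probe SDs were 0.14 and 0.52 and it did not pass the probe test (adjusted p = 0.221). cox5 and cox9 had SDs of 0.186 and 0.119 and both passed it. Their means were the same, 0.11.

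Among the factors for complex IV, cox16 (SPAC1486.08) varied most. Its SD was 0.288, and it ran from -0.41 through 0.09 to 0.67. Set 2 stood high with a median of 0.49 (-0.05 to 0.67), against -0.10 (-0.41 to 0.09) in set 1 and 0.09 (0.04 to 0.25) in set 3. Array 13, at -0.05, lay within the range of set 1, and array 15, at 0.17, within that of set 3.

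The lowest SDs of the 45 genes were those of cox10 and cox17. cox10, which makes heme O for the catalytic core, had an SD of 0.102, with values from -0.27 through -0.04 to 0.12 and set medians of -0.10 (-0.20 to 0.03), 0.05 (-0.09 to 0.11) and -0.06 (-0.27 to 0.12). cox17, a copper chaperone, had an SD of 0.106, with values from -0.17 through -0.01 to 0.32 and set medians of 0.04 (-0.05 to 0.32), -0.04 (-0.17 to 0.17) and -0.07 (-0.11 to 0.05). The probes of neither gene showed variation beyond their disagreement. The cox19 gene, also of the copper pathway, had a mean of 0.21 and an SD of 0.156. cox18, which helps insert a core subunit into the membrane, had the lowest mean of the complex IV genes, -0.05, with values from -0.30 through -0.05 to 0.38 and set medians of 0.00 (-0.11 to 0.38), -0.08 (-0.22 to 0.26) and -0.13 (-0.30 to 0.04). cox1101 had a mean of 0.06 and an SD of 0.155. cox24 had a mean of 0.16, but its probes ran against each other (r = -0.55).

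The F1 part of the ATP synthase was quiet. The F1 subunits atp1, atp2, atp3, atp15 and atp16 had SDs from 0.118 to 0.149 and means from 0.00 to 0.11, with atp15 the highest. Only atp1 of these 5 passed the probe test. The set mean was highest in set 3 for 3 of the 5 genes (atp1, atp2 and atp3), against 26.8% of all genes.

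The peripheral stalk and Fo subunits, which link F1 to the membrane and hold the dimer, varied more, with a median SD of 0.189 against 0.126 for F1. atp17 (SPBC1604.11) led them with an SD of 0.371, and its lowest, median and highest values were -0.27, -0.03 and 1.02. Set 1 had a median of 0.51 (0.05 to 1.02), while sets 2 and 3 had -0.17 (-0.27 to 0.03) and -0.11 (-0.26 to 0.06). Arrays 1 to 4, 6 and 19 stood between 0.45 and 1.02, and array 5, at 0.11, lay with arrays 7, 8 and 20.

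atp14 had an SD of 0.285 and values from 0.33 to 0.55 in arrays 1 to 6 and 19, and -0.05, -0.12 and -0.05 in arrays 7, 8 and 20. Its other sets had medians of -0.20 and -0.16. atp5, the OSCP subunit on top of F1, had an SD of 0.266 and set medians of 0.30, -0.15 and -0.12. Both genes passed the probe test.

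atp20, which supports dimer formation, had the highest mean of the ATP synthase genes, 0.15, with values from -0.17 through 0.15 to 0.49. Its set medians were 0.33 (0.21 to 0.49), 0.06 (-0.04 to 0.26) and -0.01 (-0.17 to 0.26), and here arrays 7, 8 and 20 did not drop below the rest of their set. atp4, the peripheral stalk subunit b, had the lowest mean of the 45 genes, -0.07, with values from -0.36 through -0.05 to 0.09. Its set medians were -0.01 (-0.10 to 0.09), -0.18 (-0.36 to 0.02) and -0.02 (-0.13 to 0.07). atp7 and atp18 had means of 0.15 and 0.00.

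Of the ATP synthase factors, atp12, a chaperone of the F1 alpha subunit, varied most. Its SD was 0.277, and its set medians were -0.25 (-0.49 to -0.04), 0.29 (-0.05 to 0.51) and 0.07 (-0.07 to 0.29). Its partner chaperone for the beta subunit, atp11, had an SD of 0.153 and set medians of -0.18, -0.04 and 0.07. The remaining factors atp10, atp23 and atp25 had means from 0.05 to 0.08 and SDs from 0.114 to 0.212.

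Seen as whole complexes, the mean over the 31 structural subunits was above 0 in all 28 arrays, from 0.003 in array 14 to 0.33 in array 1. The fitted means of 36 of the 45 genes were above 0, against 53.7% of all genes, with no test made of this count. The respiratory genes are short, with a median gene length of 1180 bp against 1811 bp for all genes with a length. Length and ratio were related across the genes of an array, with rho (Spearman) between -0.241 and 0.031 and a median of -0.174 over arrays. After an adjustment for length in each array, the mean over the 31 subunits was 0.07 in place of 0.10 and lay above 0 in 23 arrays, and sdh1 was again the only one of the 45 with a mean above 0 past the test, against 0.426% of all genes.

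Complex II had the highest mean, 0.20 ± 0.15 (SD, n = 28 arrays). Complex IV had 0.15 ± 0.14, complex III 0.10 ± 0.11 and the ATP synthase 0.05 ± 0.11. In set 1 complex IV had the highest median, 0.32 (0.06 to 0.50). Complex II lay below complex IV in arrays 1 to 6 and 19 (difference -0.21 to -0.003). In arrays 7, 8 and 20 it lay above complex IV (0.02 to 0.07). In set 2 complex II was highest, with a median of 0.32 (0.26 to 0.44), while the ATP synthase was below 0 in all 10 arrays (-0.11 to -0.004). In set 3 all 4 lay near 0, with medians from -0.002 to 0.05. In every array of set 2 complex II exceeded the ATP synthase, by 0.32 to 0.46, whereas in set 3 the difference ran from -0.10 to 0.11.

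The parts of the ATP synthase also parted by set. Stalk and Fo subunits minus F1 subunits was above 0 in 8 of 10 arrays of set 1 (-0.03 to 0.39), in 4 of 10 of set 2 (-0.10 to 0.08) and in 0 of 8 of set 3 (-0.33 to -0.002). Structural subunits minus factors was above 0 in 10 of 10 arrays of set 1 (0.02 to 0.33), in 1 of 10 of set 2 (-0.20 to 0.01) and in 7 of 8 of set 3 (-0.02 to 0.08). By gene, the set mean was highest in set 1 for 21 of 31 subunits, against 40.7% of all genes, and in set 2 for 9 of 14 factors, against 32.5% of all genes.

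**Figure D4:**
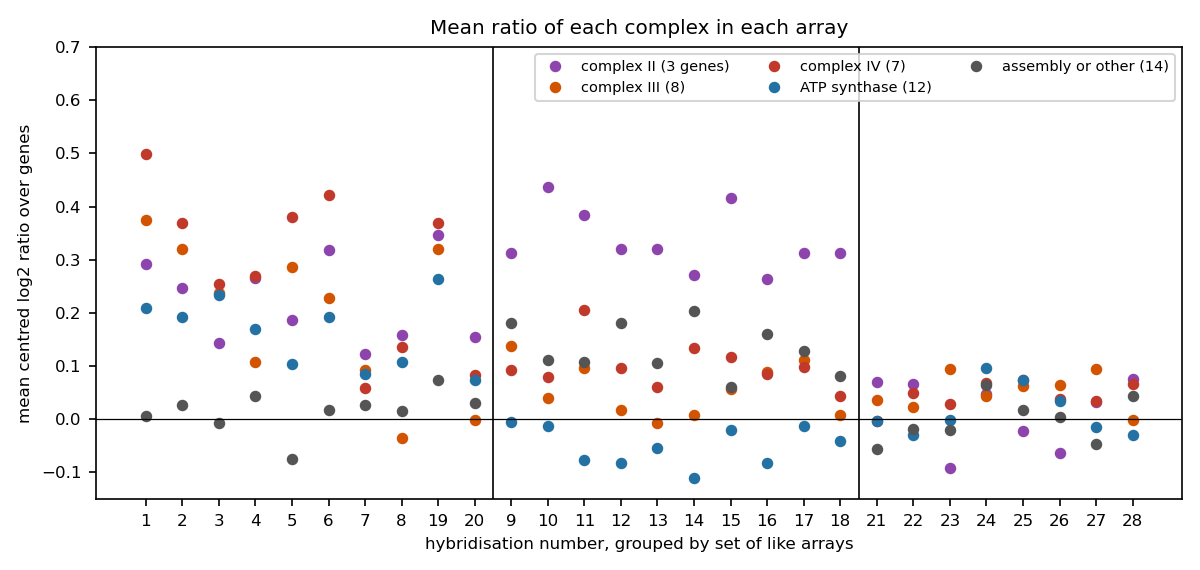
Mean centred log2 ratio over the genes of each complex in each array, with arrays grouped by set of like arrays and 1 point per complex. Complex IV reaches 0.50 in array 1, complex II lies at 0.26 to 0.44 throughout arrays 9 to 18 with the ATP synthase below 0, and all complexes lie near 0 in arrays 21 to 28.

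Pairs of subunit genes were correlated over the 28 arrays, which fall into like sets and are not independent, so these values are descriptions. The median Pearson's r over 465 pairs of subunits was 0.14, against -0.001 for all pairs of genes, and single pairs ran from -0.76 to 0.91. The 118 pairs within a complex had a median of 0.19 and the 347 pairs between complexes 0.13. With set means removed these medians were 0.05 and 0.08. The median within complexes was thus the higher one over all arrays and the lower one once the sets were removed.

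The closest pairs joined genes whose median was highest in set 1: cox6 with cox8 (0.91), cox6 with atp14 (0.91) and atp14 with atp17 (0.91). cox13 and qcr6, of different complexes, formed a pair of their own at 0.91, and at 0.78 with set means removed. The lowest value was that of cox13 with atp5 (-0.76), followed by cox4 with cox13 within complex IV (-0.75). With set means removed these pairs stood at -0.26 and -0.27, and the lowest was cyc1 with qcr6 (-0.70).

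**Figure D5:**
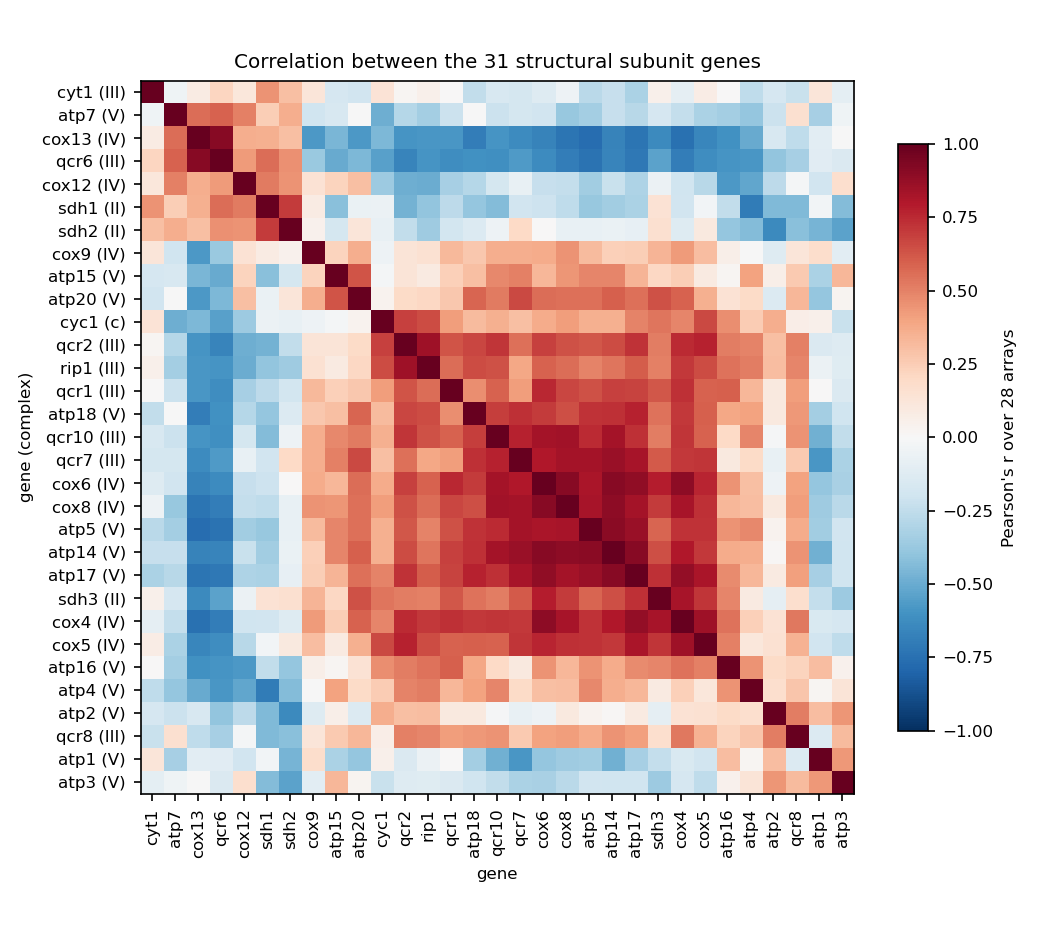
Pearson's r over 28 arrays between the 31 structural subunit genes, ordered by clustering, with the complex of each gene in brackets; red is above 0 and blue below 0. A block of genes of several complexes around cox6, cox8, atp14 and atp17 has high r, and cox13 and qcr6 have high r with each other and r down to -0.76 with that block.

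Among genes that are not members, the 8 whose 28 values were most like the mean of the structural subunits were named by Pearson's r. They were rli1 (0.96), lat1 (0.95), tif306 (0.94), emc6 (0.94), SPBC365.16 (0.93), an identifier with no gene name (pB10D8_100569, 0.93), lsm2 (0.93) and tif1 (0.93). lat1 encodes the acetyltransferase of pyruvate dehydrogenase, and tif1 the helicase eIF4A of translation initiation. With set means removed, r for rli1 was 0.91 and for lat1 0.90. That removal leaves the split within set 1 in the values. The subunit mean was 0.19 to 0.33 in arrays 1 to 6 and 19, and 0.05 to 0.08 in arrays 7, 8 and 20. The variation of emc6 did not pass the probe test (adjusted p = 0.177).

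Of 61 other genes of the pathway, listed by role, 0 passed the limma test of the mean in either direction, against 1.44% of all genes, and 6 had an unadjusted p under 0.05, against 14.6% of all genes. Among the measured genes of each list, of 7 NADH dehydrogenases and other entry points 4 passed the probe test, of 13 coenzyme Q genes 2, of 15 assembly factors outside the naming rule 9, of 7 heme synthesis genes 4 and of 14 genes of mitochondrial gene expression 5, against 53.1% of all genes. The coenzyme Q genes had the lowest share of these lists. hem13, coproporphyrinogen oxidase of heme synthesis, had an SD of 0.348 and set medians of 0.39, -0.09 and -0.18. oxa102, an insertase of the inner membrane, had an SD of 0.334 and set medians of 0.41, 0.09 and -0.28. The highest SD among the entry points was that of hmt2 (0.262), among the coenzyme Q genes that of coq12 (0.239) and among the genes of mitochondrial gene expression that of mss116 (0.228). The variation of hmt2 did not pass the probe test (adjusted p = 0.491).

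The Php complex binds CCAAT boxes, and in fission yeast its php4 subunit represses iron-using genes when iron is low. Of its 4 genes 3 passed the probe test, against 53.1% of all genes, and 0 passed with the sets removed, against 23.2%. php4 had the highest SD, 0.298, with set medians of -0.01, -0.58 and 0.04. In set 2 the means of the 5 subunits that hold iron or heme were 0.35 (sdh2), 0.14 (cyt1), -0.02 (rip1), -0.002 (cyc1) and 0.16 (sdh3). The variation of cyt1 and sdh3 did not pass the probe test (adjusted p = 0.0775 and 0.614), and that of cyc1 did not follow the sets. The joint mean of the 5 subunits was 0.17, 0.13 and 0.04 in the 3 sets. The part of php4 in these values was not tested. anc1, the ADP/ATP carrier, had an SD of 0.280 and set medians of 0.20, -0.22 and 0.37, with set 2 the lowest.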

How the data were processed

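The authors deposited medians of log2 ratios, per the labels. A GenePix 4000A scanner and GenePix Pro 4.0 gave the spot values, and background correction came before the removal of flagged and dim features. The centring step is not given in the sources used here. The table has 9858 probes with 0 missing values, and no spot intensities were used, so signal over background is unknown and the number of arrays limits the precision.

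Array medians were set to 0, and a gene's value is the average of its 2 probes. Of 4929 genes, 4816 have a single annotated gene, and all 45 members matched the RefSeq table (ASM294v3), which gave current names and lengths. Arrays were clustered on non-members (average linkage on 1 minus Pearson's r, 3 sets): r was 0.659 (median) for arrays of 1 set and 0.038 for arrays of different sets, a gap that the clustering itself partly makes. The test of means used limma 3.58.1 under R 4.3.3 (lmFit, duplicateCorrelation on the sets, eBayes with a robust prior) and assumes that all arrays run the same way. The probe test set the mean square between arrays over that of array by probe. Both used Benjamini-Hochberg over 4929 genes with a threshold of 0.05 and were run on simulated data. For the test of means these data gave all genes the same correlation within sets, and for the probe test they held no sets. They therefore cannot show how either test behaves for genes that follow the sets more closely. Members, sets and lists were chosen with earlier results of these data known.

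Full values are given for members past the mean test, the 6 of highest SD past the probe test, the 3 of lowest SD, the highest and lowest mean in each complex, and further members chosen after their values were seen (sdh2, sdh3, qcr7, cox4, atp5, atp12 and atp14). The 8 genes most like the subunit mean and the highest SD of each list are named, and fio1, frp1 and lists' other genes only where a result touches them. Alternatives changed the centring, scaling, probe, arrays, length adjustment, block, prior, measure of spread and summary.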

Additional observations from a re-analysis of the deposited data

How the results depend on the processing

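No paired analysis was possible because all arrays belong to 1 group. The count of 1 member with a mean above 0 and 0 below 0 was 20 and 1 with no block, against 27.8% and 24.0% of all genes, and 3 above 0 with 5 sets as the block, 2 with arrays scaled and 0 with set means. In sets 1, 2 and 3 alone it was 25, 18 and 8 above 0 and 6, 8 and 5 below 0. The probe test passed 25 members, against 53.1% of all genes, but 5, 6 and 6 members in each set alone, where fewer arrays are tested. The share of all genes in each set alone was not counted, so these counts are not read as a result about the members. The median SD of 0.186 was 0.158 with arrays scaled and 0.136, 0.110 and 0.117 in each set alone. The median share of variance between sets, 40.3%, was 52.1% with 5 sets. The median correlation of subunits, 0.144, was 0.217 without centring, 0.088 with arrays scaled, 0.107 for probe 2 alone, 0.194 without arrays 25 to 28, 0.090 and -0.024 in sets 1 and 3 alone and 0.068 with set means removed. The mean of complex II, 0.204, was 0.014 in set 3 alone, and that of the ATP synthase, 0.045, was 0.163 in set 1. Among the 18 members named by rule, means that changed sign in a set alone, past the test there, were those of atp17 (-0.13), cox8 (-0.093) and sdh7 (0.12) in set 2 and cox13 (-0.20), qcr6 (-0.15) and qcr10 (0.16) in set 1; the cause was not tested. Members outside that rule, such as atp5, atp12, atp14 and sdh2, also did so. The other 82 alternative values of these results moved by less than the spread or stayed within 1.5 times the count. For the 18 members named by rule, 34 alternative fits passed a mean that the main fit did not, with its sign kept. Most of these fits had no block or used 1 set, and qcr8 and cox12 were among them in every set alone. Filters on dim probes, other background corrections and a slide block were not possible from ratios alone.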
